A study of Caenorhabditis elegans with 2 samples.

Results

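The regions described here are the places on the X chromosome of *Caenorhabditis elegans* where the tagged transcription factor CEH-82 had a listed ChIP-seq summit near the start of a protein-coding gene. Chromatin immunoprecipitation with sequencing (ChIP-seq) recovers DNA held by a chosen protein, and a summit is the point of highest signal within a listed interval. A region was taken when its summit lay 1000 bp upstream to 200 bp downstream of the annotated start of a protein-coding gene on X. This held for 406 of the 9070 regions that the authors called on both replicates together. All regions came from 1 group, whole L2 larvae of mixed sex from strain OP212, with 2 biological replicates and no treatment. The strain's genotype is unc-119(ed3) III with ddEx58, which expresses CEH-82 fused to eGFP. By worm naming custom an Ex allele is an extrachromosomal array, which can be lost from some cells of an animal. The labels name no untagged strain, other stage or other factor among the samples, and the age is given as unknown. Whole animals were used, so a region can come from any tissue and no tissue marker could be checked.

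The annotated start of a worm gene is often not where transcription begins. Many worm transcripts have their first bases replaced by a spliced leader, so the true initiation site can lie some way upstream of the annotated start, and a compact genome often places genes head to head with a promoter between them. The X chromosome is present in a single copy in males and as a pair in hermaphrodites, and a condensin-based dosage compensation complex lowers transcription of both hermaphrodite copies. That complex is loaded at X sites that carry a motif called MEX, for motif enriched on X. CEH-82 is a homeobox protein, a class of factors that bind DNA through a homeodomain, usually at short AT-rich sites with a TAAT core.

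Of the 406 regions, 56 (13.8%) were also in the authors' list of reproducible peaks, which were thresholded on the irreproducible discovery rate (IDR), a measure of how well ranks hold between replicates. The share over all pooled regions was 5.92%. It was 12.8% for autosomal coding promoter regions (291 of 2267, where 3 more only overlapped a reproducible peak and are left out of both autosomal sets below) and 4.31% for X regions outside coding promoter windows (60 of 1392). The share at X coding promoters was thus close to that at autosomal ones. The 56 are called reproducible here and the other 350 remaining, and no member overlapped a reproducible peak without being one. The reproducible peaks were exactly the highest signal values of the pooled list, so reproducible also means stronger. Counts and shares below are descriptions without a test, because there is 1 group and the regions are not replicates of a condition.

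The sequences printed here were chosen by signal value within each set. They are those of the strongest sites with coding starts on 1 strand, the strongest with starts on both strands, and the strongest remaining sites. Each is read from the plus strand of build ce11 (WBcel235), reaches 50 bp to either side of the summit and is written 5′ to 3′. Capitals mark matches to the motifs searched. In nspc-17 these are the E-box CAGCTG and, on the other strand, the MEX core. In ins-39 the run of capitals joins an E2F-like core, the MEX core and the same E-box. In R04E5.9 with cnnm-2 it is a TATA sequence. The windows lie at chrX:14525867-14525967, chrX:1345011-1345111, chrX:5841259-5841359, chrX:14853917-14854017, chrX:8811125-8811225, chrX:9999911-10000011, chrX:12690533-12690633 and chrX:15741964-15742064, in the order given.
nspc-17: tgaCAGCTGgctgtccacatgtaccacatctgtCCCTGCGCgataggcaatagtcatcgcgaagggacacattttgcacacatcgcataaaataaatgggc
ins-39: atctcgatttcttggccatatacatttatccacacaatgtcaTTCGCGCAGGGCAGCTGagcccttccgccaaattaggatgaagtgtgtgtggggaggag
puf-9: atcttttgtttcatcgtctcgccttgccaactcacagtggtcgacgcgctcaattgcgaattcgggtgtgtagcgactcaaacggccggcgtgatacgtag
C27C12.4 and C27C12.1: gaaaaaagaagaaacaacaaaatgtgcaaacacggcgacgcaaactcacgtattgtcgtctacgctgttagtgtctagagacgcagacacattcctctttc
R04E5.9 and cnnm-2: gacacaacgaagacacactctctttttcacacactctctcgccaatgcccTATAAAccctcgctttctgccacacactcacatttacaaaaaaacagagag
grk-1 and F19C6.2: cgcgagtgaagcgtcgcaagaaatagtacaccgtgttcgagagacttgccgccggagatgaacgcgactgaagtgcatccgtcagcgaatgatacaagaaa
ugt-50: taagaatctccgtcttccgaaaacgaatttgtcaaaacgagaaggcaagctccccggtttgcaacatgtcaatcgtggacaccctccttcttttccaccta
nhr-255: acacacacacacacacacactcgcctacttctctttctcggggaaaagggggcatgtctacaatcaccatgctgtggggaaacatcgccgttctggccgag
The first 3 have starts on 1 strand, the next 3 on both, and the last 2 are the strongest remaining regions. The other 5 windows hold none of the 15 motifs.

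A few sites stood far above the others in the pooled list. The signal value, the authors' score per region with no stated scale, ranged from 21.2 to 187 in the 56 reproducible regions with a median of 25.3. It ranged from 7.41 to 20.8 in the remaining 350, with a median of 9.39, a gap that the threshold itself sets. Only 8 regions exceeded 40. The median of the 291 autosomal reproducible regions was 29.7.

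**Figure D1:**
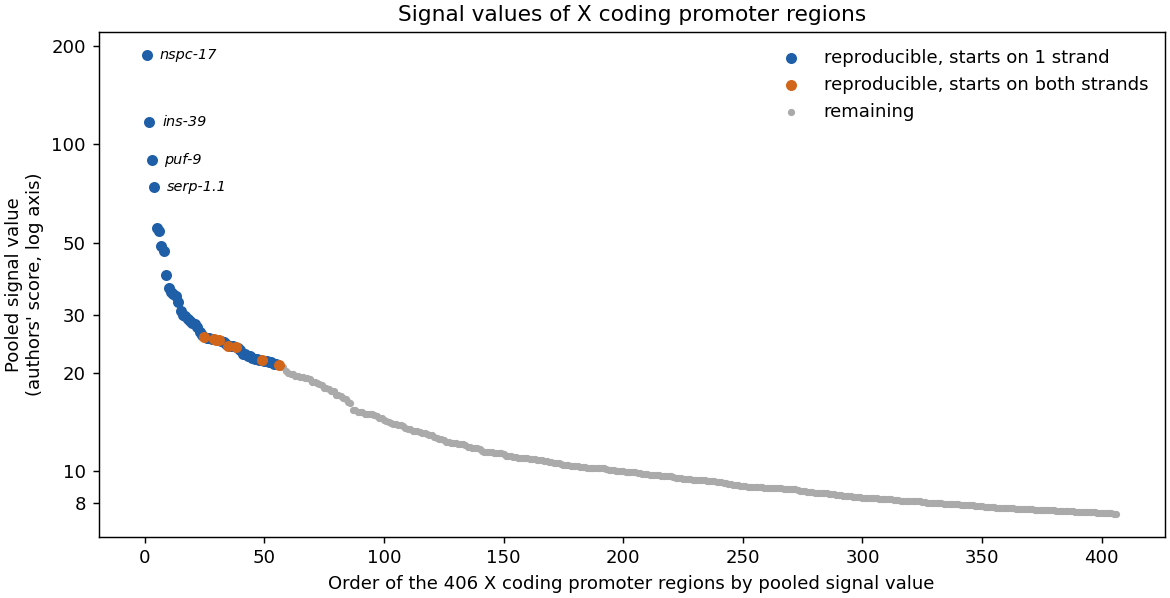
Pooled signal value (authors' score, log axis) of each X coding promoter region against its order by that value, with colours for reproducible regions with starts on 1 strand, those with starts on both strands and remaining regions, and the highest 4 named. The curve drops from 187 at nspc-17 to 39.8 at hsp-3, the ninth region, and passes from reproducible to remaining between 21.2 and 20.8 without a break.

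The highest value, 187, belonged to the region of nspc-17, a gene of the nematode-specific peptide family group C. Its interval was chrX:14525864-14526017, with the summit 736 bp upstream of the start. The same summit scored 45.8 in the replicate 1 list, where it ranked 8, and 143 in the replicate 2 list, where it ranked 1. It was the only reproducible member narrower than 264 bp, the width of 9059 of the 9070 pooled regions.

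The second, ins-39, encodes an insulin-like peptide, a class of secreted ligands of the worm insulin receptor. Its interval was chrX:1344929-1345192, the summit lay 640 bp upstream, and the signal value was 117. It scored 35.5 in replicate 1 (rank 16) and 81.6 in replicate 2 (rank 12). Both of the strongest regions therefore lay more than 600 bp upstream, where 12 of the 56 did.

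The third, puf-9, encodes a Pumilio-family protein that binds mRNA. Its interval was chrX:5841177-5841440, its summit lay 283 bp upstream, and its value was 89.6, with 33.5 in replicate 1 (rank 19) and 52.8 in replicate 2 (rank 33). The fourth, serp-1.1, encodes a stress-associated protein of the endoplasmic reticulum. Its summit at chrX:15841135-15841398 lay 305 bp upstream with a value of 73.8, and it was at rank 50 in replicate 1 and 28 in replicate 2.

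Then came dpy-23 with 55.5, the mu subunit of the clathrin adaptor AP-2, eef-1A.2 with 54.1, a translation elongation factor, and rpl-11.2 with 48.8, a protein of the large ribosomal subunit. The summits of these 3 lay 282, 325 and 349 bp upstream. The bZIP factor gene cebp-1, studied in worms for its part in axon regrowth, had 47.1 with a summit 654 bp upstream. The ER chaperone gene hsp-3 had 39.8, with the summit 22 bp downstream of the start and in the 5′ UTR. A region is called high in a replicate when it is among that list's strongest regions, as many of them as there are reproducible peaks. All 9 named so far were high in both replicates. The same was true of C14A11.9 (36.3) and epg-7 (35.4), an autophagy gene, so the 11 strongest members were all high in both.

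The weakest reproducible members and the strongest remaining ones hardly differed in signal. Just inside the threshold were unc-115 (21.6), cdk-11.2 (21.6), akt-2 (21.3), pkhm-2 (21.2) and the shared region of glit-1 and dnj-14 (21.2). Just outside were ugt-50 (20.8), nhr-255 (20.8), mans-3 (20.3), F22F1.3 (20.004) and F57G12.1 (19.9). A region is called unmatched in a replicate when that list has no summit closer than 100 bp. ugt-50 was at rank 447 in replicate 1 and 773 in replicate 2, while akt-2 was unmatched in replicate 1 and was at rank 450 in replicate 2.

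Many of these regions had ranks far apart in the replicate lists, or no match in 1 of them. Each replicate list holds 30000 regions, background included, and a region was matched when the list had a summit within 100 bp. It then took the rank of the nearest such summit, which need not be the strongest. A match was found in replicate 1 for 50 of the 56, in replicate 2 for 55, and in both for 49 (87.5%), against 90.5% over all reproducible peaks of the genome. High in both were 20 (35.7%), against 44.7% of all reproducible peaks and 48.8% (142 of 291) of the autosomal reproducible regions. High only in replicate 2 were 23 and only in replicate 1 were 12. With 50 bp allowed, 38 regions had a match in both lists and 16 were high in both. With 250 bp these counts were 53 and 20, so being unmatched depends in part on the distance allowed. These shares are not independent of the threshold, which was set on both replicates.

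Regions without a match in replicate 1 were C27C12.4 with C27C12.1, sym-4, vha-15, T10B10.4, aps-2 and akt-2. The 1 region without a match in replicate 2 was mdl-1, which encodes a Mad-like bHLH factor, and it was at rank 853 in replicate 1. It was also the 1 reproducible member high in neither. vha-12, a subunit of the vacuolar proton pump, had a pooled value of 34.3, a value of 3.02 in replicate 1 (rank 18518) and of 29.4 in replicate 2 (rank 110). mai-1, which encodes a mitochondrial ATPase inhibitor, went the other way, with 14.9 in replicate 1 (rank 110) and 5.85 in replicate 2 (rank 5555).

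Ranks beyond 5000 in replicate 1 were found for 7 of the 56, vha-12, nipi-3, F17E5.2, grk-1 with F19C6.2, C05G5.2, act-4 and glit-1 with dnj-14. In replicate 2 only mai-1 stood that low. Over the 49 regions in both lists, Spearman's rho between the replicates' signal values was 0.113, against 0.329 over the autosomal reproducible regions. This order turned in the stronger 50% by pooled signal, with 0.439 on X and 0.316 on the autosomes (26 and 141 regions in both lists). In the weaker 50% it was −0.859 and −0.538 (23 and 135 regions). These are correlations across regions that the joint signal of the replicates selected, and regions are not independent replicates. Of the remaining members, 148 of 350 (42.3%) had a match in both lists, 14 in neither, and 0 were high in both.

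**Figure D2:**
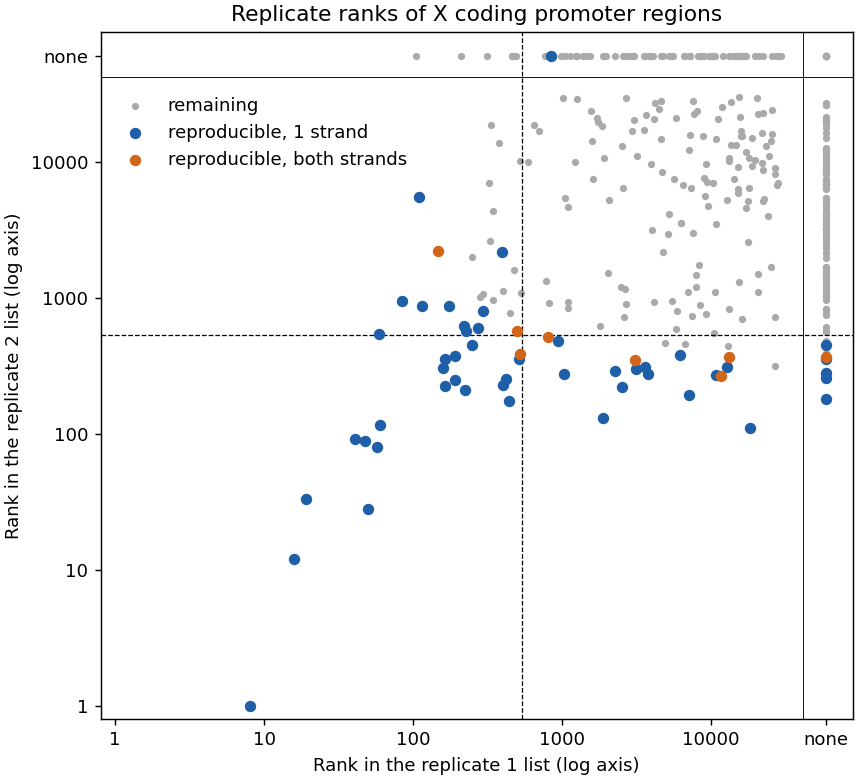
Rank of each X coding promoter region in the replicate 1 list (x axis) and the replicate 2 list (y axis), both on log axes with 1 the strongest, for reproducible and remaining regions, with dashed lines at the rank up to which a region is high and unmatched regions in the strips marked none. Colours tell remaining regions from reproducible ones with starts on 1 or both strands, and 20 reproducible regions lie inside both dashed lines.

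Most reproducible regions lay upstream of the start of a single gene. The median offset from the nearest coding start was −282.5 bp (quartiles −523.25 and −173, negative meaning upstream), against −295 bp (−619 and −96.25) for the remaining regions. Summits were upstream in 51 of 56 (91.1%) and in 312 of 350 (89.1%). The window reaches 1000 bp upstream and only 200 bp downstream, so high upstream shares follow in large part from the rule. Between 400 and 100 bp upstream lay 33 of the 56 (58.9%) against 109 of the 350 (31.1%). In autosomal reproducible regions this share was 59.8%. The interval leaves out the last 100 bp before the start, and its share was not computed in either replicate list alone. The nearest 200 bp upstream held 15 of the 56 (26.8%) and 105 of the 350 (30%), so the sets were close there. From 200 to 400 bp upstream lay 19 (33.9%) and 59 (16.9%). The autosomal reproducible shares in these 200 bp stretches were 50.2% and 28.2%.

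The last 100 bp before the start held 1 of the 56 (1.79%), the region of R04E5.9 at −33 bp, against 55 of 350 (15.7%) and 54 of 291 autosomal reproducible regions (18.6%). This gap was nearly absent in replicate 1 taken alone and small in replicate 2 taken alone. Among the high regions of replicate 1, 5 of 57 X coding promoter regions (8.77%) lay there against 99 of 1076 (9.20%) of that list's others, and in replicate 2 it was 4 of 51 (7.84%) against 110 of 1061 (10.4%).

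**Figure D3:**
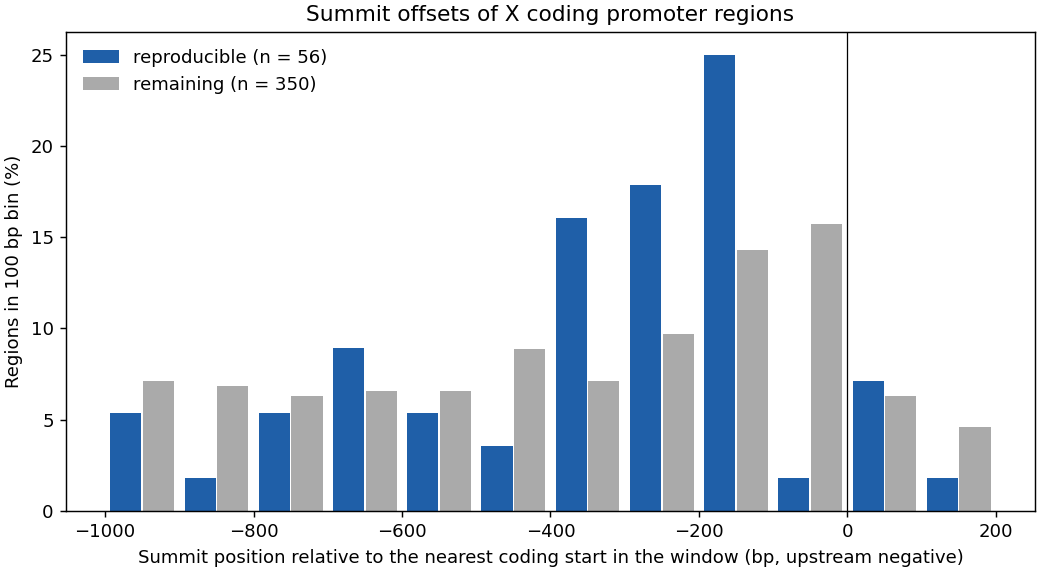
Share of regions (percent of each set, y axis) by distance of the summit from the nearest coding start (x axis, bp, negative upstream) for X reproducible (n = 56) and X remaining (n = 350) regions, in 100 bp bins. The reproducible set peaks between 200 and 100 bp upstream, with 25% of its regions, and has 1.79% in the next 100 bp, where the remaining set has 15.7%. In each replicate list alone, high and other regions lay much closer in that last bin.

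By position in the annotation, 51 of the 56 summits were intergenic and 5 were exonic, with 0 in introns. Of the exonic ones, hsp-3 (+22 bp), pdi-6 (+2 bp), mai-1 (+192 bp) and C28G1.2 (+62 bp) were in a 5′ UTR, and act-4, an actin gene, was in coding sequence at +61 bp. Of the remaining regions 280 were intergenic, 46 exonic and 24 intronic. A start of a noncoding gene also lay in the window for 12 of 56 (21.4%) and 71 of 350 (20.3%).

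Starts on both strands were less common on X than on the autosomes. Both strands had a coding start in the window for 8 of 56 reproducible regions (14.3%) and 19 of 350 remaining ones (5.43%). For autosomal regions it was 134 of 291 (46.0%) and 337 of 1973 (17.1%). Taken at a point 282 bp upstream of every annotated coding start, it was 209 of 2731 on X (7.65%) and 3937 of 17242 on the autosomes (22.8%). At that distance, close to the X reproducible median, such places were thus less common on X over all coding starts too. These points are counted per start, so both starts of a pair can add a point, and their shares are not on the scale of the region shares. The autosomal reproducible median was −185 bp. The part of gene arrangement in the shares of regions was not tested. Among the high regions of replicate 1 alone the X share was 8.77%, and in replicate 2 alone 11.8%.

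The 8 regions with starts on both strands were C27C12.4 with C27C12.1, R04E5.9 with cnnm-2, grk-1 with F19C6.2, trap-2 with ile-2, rab-14 with nipi-3, asg-2 with glr-6, C28G1.2 with sec-15, and glit-1 with dnj-14. Their signal values were 21.2 to 25.8, so the first of them stood 25th among the 56. The stronger 28 regions held 1 of the 8 and the weaker 28 held 7. On the autosomes the stronger 145 held 72 and the weaker 146 held 62.

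**Figure D4:**
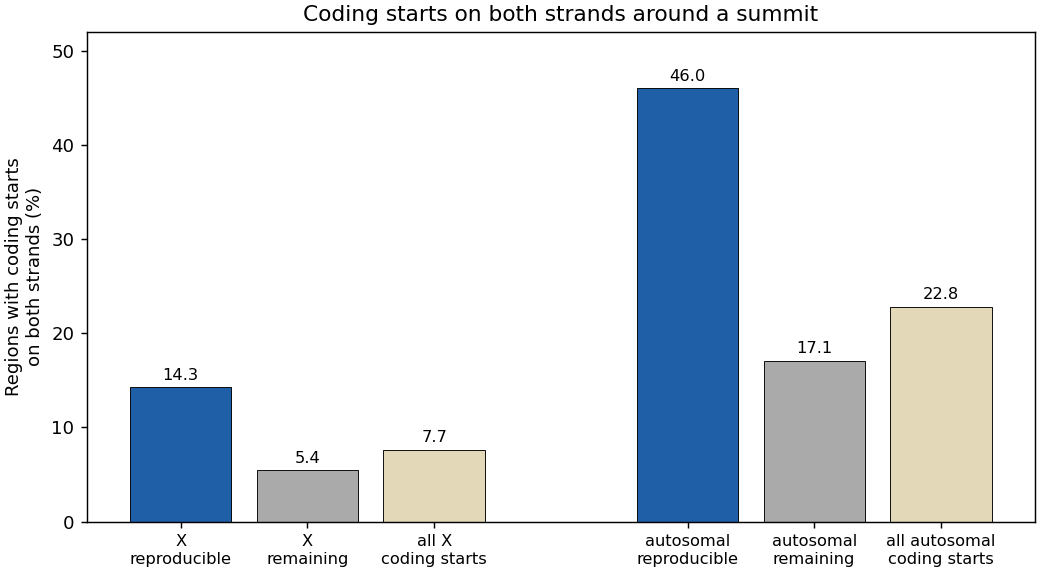
Percent with coding starts on both strands (bars from 0) for reproducible regions, remaining regions and points 282 bp upstream of all annotated coding starts, on X and on the autosomes. The points are counted per start, so both starts of a pair can each add a point, whereas a region counts once. The X bars are 14.3%, 5.43% and 7.65%, and the autosomal ones 46.0%, 17.1% and 22.8%.

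The reproducible regions were richer in G and C than the remaining ones. From 100 bp before to 100 bp after the summit their mean GC content was 51.0% ± 5.98 (SD over regions, n = 56), against 40.2% ± 8.18 (n = 350) in the remaining regions. Autosomal reproducible regions had 44.5% ± 6.55 (n = 291), and the windows 282 bp upstream of all 2731 X coding starts 35.2% ± 7.10. GC exceeded 50% in 33 of 56 (58.9%) and in 44 of 350 (12.6%). The highest was hsp-3 with 62.2% and the lowest nhx-5 with 36.3%. The strongest regions were not the richest, since nspc-17 had 42.3% and ins-39 40.8%.

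The same order held in each replicate list alone, with 48.8% in the high regions and 36.5% in the rest of replicate 1, and 51.0% and 37.9% in replicate 2. CpG dinucleotides numbered 13.8 ± 4.51 per window in the reproducible regions and 8.10 ± 4.42 in the remaining ones, and 13.6 in the autosomal reproducible regions.

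**Figure D5:**
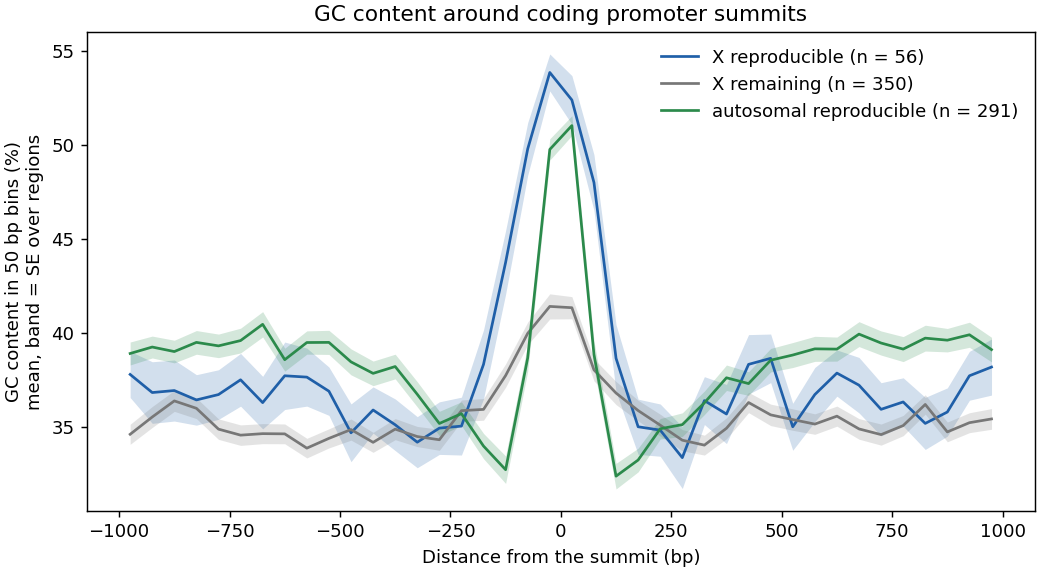
Mean GC percent (y axis) in 50 bp bins by distance from the summit (x axis, bp) for X reproducible, X remaining and autosomal reproducible regions, with bands of 1 SE over regions. X reproducible regions reach 53.9% in the bin just before the summit, against 41.4% in the remaining and 49.8% in the autosomal reproducible regions. In the bin just after it the values are 52.4%, 41.3% and 51.0%. Before and after follow the plus strand and not the direction of the gene.

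In the bins centred 75 bp to either side of the summit, mean GC was 49.8% and 48% in the X reproducible regions and 38.7% and 38.9% in the autosomal ones. The GC-rich stretch was thus wider on X in this profile.

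The AT-rich homeodomain core TAATTG was less frequent in the reproducible regions than in the remaining ones. Motifs were searched as exact letters on both strands of the same windows. TAATTA stood in 2 of the 56 (3.57%), mgrn-1 and act-4, in 5.43% of the remaining regions and in 10.3% of windows upstream of all X coding starts. TAATTG stood in 2 of the 56 (3.57%), cebp-1 and sym-4, against 13.1% of the remaining regions and 18.5% of all X windows. In the replicate lists alone TAATTG stood in 7.02% of the high regions and 18.96% of the others (replicate 1) and in 5.88% and 15.7% (replicate 2). Within 50 bp of the summit it stood in 0% and 6%, and within 200 bp in 10.7% and 28.9%. TAATCC, a homeodomain core with fewer A and T, stood in 3.57% and 2.57% of reproducible and remaining regions. ATCGAT, searched as a cut-like site, went the other way from TAATTG. It stood in 7 of the 56 (12.5%), in 8.86% of the remaining regions and in 5.53% of all X windows. TATAAA, the TATA box core, stood in 3.57%, 17.1% and 24% of reproducible, remaining and all X windows. In the replicate lists alone TATAAA stood in 8.77% of the high regions and 19.3% of the others (replicate 1) and in 7.84% and 21.1% (replicate 2), and within 200 bp of the pooled summit in 23.2% and 34.6%. Autosomal coding promoter regions went the same way. TAATTG stood in 5.84% of their reproducible and 13.3% of their remaining regions, and TATAAA in 10.3% and 19.8%. Most of these motifs are AT-rich and the reproducible regions GC-rich, and the part of base composition in these shares was not tested.

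Some of the other motifs were more frequent. CAGCTG, an E-box that bHLH factors bind, stood in 8 of the 56 (14.3%), nspc-17, ins-39, serp-1.1, mgrn-1, trap-2 with ile-2, C18B12.4, C05G5.2 and unc-115. It stood in 4% of the remaining regions and 4.49% of all pooled regions. In autosomal coding promoter regions it stood in 7.56% of the reproducible and 4.76% of the remaining ones. In the replicate lists alone the E-box stood in 8.77% of the high regions and 2.97% of the others (replicate 1) and in 13.7% and 4.24% (replicate 2), and within 50 bp of the pooled summit in 8.93% and 2%. GAGAGAGA, a GA repeat, stood in 7 (12.5%), eef-1A.2, epg-7, F09C8.2, nhr-1, vha-15, T10B10.4 and akt-2, against 3.14% and 4.58%. The autosomal shares were 7.56% of reproducible and 4.56% of remaining coding promoter regions. In replicate 1 alone GAGAGAGA stood in 14% of the high regions on X and 2.51% of the others, and in replicate 2 alone in 11.8% and 3.02%. Within 50 bp of the pooled summit it stood in 5.36% and 1.14%, and within 200 bp in 19.6% and 7.14%. GGGCGG (10.7% of X reproducible and 4.29% of X remaining regions) and AGGTCA (10.7% and 5.14%) were also more frequent. So were CACGTG (7.14% and 5.14%) and TTCGCGC (3.57% and 2.57%). TGATAA (5.36% and 13.7%), GTAAACA (1.79% and 4.57%) and TGACGTCA (0% and 1.14%) were less frequent.

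The MEX core GCGCAGGG was found in 3 of the 56 reproducible regions (5.36%), among them the 2 strongest, and in 2 of the 350 remaining ones (0.571%). In the replicate lists alone it was in 2 of 57 high regions (3.51%) and 0 of 1076 others (replicate 1), and in 3 of 51 (5.88%) and 3 of 1061 (replicate 2). With so few matches these shares are loose, and with the narrower promoter window the core was in 1 of 40 (2.5%). Over all 9070 pooled regions it was in 31 (0.342%), over the 60 reproducible X regions outside coding promoters in 12 (20%), and over 421 autosomal reproducible regions in 1 (0.238%). The 5 windows with the core are given as 30 bases read on the strand of the core, with the core in capitals, at chrX:14525889-14525918 (minus), chrX:1345045-1345074 (plus), chrX:8811094-8811123 (minus), chrX:1371043-1371072 (plus) and chrX:5368436-5368465 (minus).
nspc-17: tattgcctatcGCGCAGGGacagatgtggt
ins-39: caatgtcattcGCGCAGGGcagctgagccc
R04E5.9 and cnnm-2: gaacacgcgacGCGCAGGGagagggacgca
F56C3.7 and fbxa-190: gttacaaaaagGCGCAGGGaaattacggat
jkk-1: tagtcgaagaaGCGCAGGGgctcccggtct
The first 3 are reproducible and the last 2 remaining. The centre of the core lay at −13.5, −1.5 and −66.5 bp from the summit in the reproducible regions, on the plus strand axis. In ins-39 the E2F-like core overlaps the MEX core and the E-box adjoins it, so these matches are not separate observations. A match is a run of letters and does not show that the dosage compensation complex or CEH-82 was bound there.

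By role, the genes of the reproducible regions formed several groups, which were put together after their values were seen and therefore carry no count against a background. Genes of the endoplasmic reticulum were at 6 regions with values from 25.2 to 73.8. They were serp-1.1, hsp-3, pdi-6, which encodes a disulfide isomerase, uggt-1, which checks glycoprotein folding, atf-6, a membrane-bound factor of the unfolded protein response, and the shared region of trap-2 and ile-2. Clathrin-mediated uptake was represented by the AP-2 subunits dpy-23 (mu, 55.5), apa-2 (alpha, 26.7) and aps-2 (sigma, 22.7) and by the epsin gene epn-1 (29.3). apa-2 was at rank 2522 in replicate 1 and 220 in replicate 2, aps-2 had no match in replicate 1, and epn-1 was at rank 1898 and 130, so of these 4 only dpy-23 was high in both.

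Genes for transcription and chromatin were at 7 regions with values from 21.9 to 47.1. They were cebp-1, nhr-1, nhr-48, mdl-1, atf-6, ceh-39 and the bromodomain gene bet-2. Here too some had only remaining regions, such as the transcription factor genes nfya-1 (13.5) and fkh-9 (9.94). Post-transcriptional regulators were puf-9, ain-1 (27.6), a partner of the microRNA machinery, and pab-2 (25.6), a poly(A)-binding protein. Other genes of neurons, besides cebp-1, were at regions with values of 21.2 to 23.9. They were syd-2, a presynaptic organiser, unc-115, glr-6, a glutamate receptor subunit, and glit-1.

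Counted by gene, 416 of 2731 X coding genes (15.2%) had any pooled summit in the window and 63 (2.31%) a reproducible one, against 15.5% and 2.58% of the 17242 autosomal coding genes. Of X genes with any summit, 15.1% had a reproducible one, and of autosomal genes 16.6% (444 of 2676). nipi-3, a Tribbles-like kinase gene, was the 1 gene with 2 reproducible summits. These lay 222 and 915 bp upstream, 693 bp apart, and the farther one was shared with rab-14.

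The lists of genes by function take genes by the first letters of their symbols, so genes of the same function under other names are not counted in them. In these lists, the highest count was for vesicle traffic and the vacuolar ATPase. Of 30 such genes on X, 13 had any summit and 6 a reproducible one, vha-12, apa-2, rab-14, vha-15, aps-2 and sec-15. Of these 6 only rab-14 was high in both replicates, at rank 526 in replicate 1 and 387 in replicate 2. Of 25 nuclear hormone receptor genes 11 had any summit and 2 a reproducible one, nhr-1 (33.0) and nhr-48 (21.9), and daf-12 was among the other 9. Over all X genes with any summit, the share with a reproducible one was the 15.1% above.

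Over all X coding genes, 15.2% had any summit and 2.31% a reproducible one, which are the shares to set beside the small counts that follow. Of 6 X signal elements and sex determination genes, 2 had a summit. ceh-39, a ONECUT homeobox gene and one of the X signal elements by which the embryo counts its X chromosomes, had a reproducible one 221 bp upstream with a value of 24.8, at rank 219 in replicate 1 and 621 in replicate 2. sdc-2, which directs dosage compensation to X, had a remaining one. ceh-39 was also the only one of 24 homeobox genes on X with any summit. Of 5 chaperone genes 2 had a summit, hsp-3 and dnj-14, and both were reproducible.

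The counts in the other lists are too small to set apart from those shares. Of 86 genes for neurotransmitter receptors and ion channels 9 had any summit and 1 a reproducible one, glr-6. Of 34 neuropeptide and insulin genes 4 had any summit and 1 a reproducible one, ins-39. Of 32 genes with cuticle collagen and cuticlin symbols and of 34 with chemoreceptor symbols, 2 each had a summit and 0 a reproducible one. The collagen list leaves out let-2, a type IV collagen gene with a remaining region. The proteasome and ubiquitin list had 8 X genes, 0 of them with any summit, and it leaves out mgrn-1 and C27C12.1, which RefSeq names as ubiquitin ligases and which had reproducible ones. Of 25 chromatin genes 3 had any summit and 1 a reproducible one, bet-2, and of 14 muscle genes 2 had any and 1 a reproducible one, act-4. The ribosomal protein list had 2 X genes and the translation list 3, and in each 1 gene had a summit, which was reproducible (rpl-11.2 and eef-1A.2). The list of mitochondrial ribosome and respiration symbols had 1 gene, sdha-1, with a remaining region, and it leaves out asg-2 (23.9), mai-1 (22.5), sucl-1 (21.7) and F17E5.2 (25.4), mitochondrial genes by their RefSeq products at reproducible regions. The splicing list had 4 genes, of which 2 had a summit and 0 a reproducible one.

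Reproducible regions lay along the whole chromosome. In 4 equal stretches of X from left to right they numbered 12, 13, 11 and 20, the remaining ones 78, 80, 90 and 102, and annotated coding starts 653, 732, 714 and 632. The rightmost stretch therefore held the most reproducible regions and the fewest coding starts. The median distance between neighbours was 213268 bp. Besides the pair at nipi-3, 5 pairs lay within 12000 bp of each other, and the closest of these, vha-15 and rpl-11.2, lay 5361 bp apart.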

How the data were processed

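ChIP-seq of eGFP-tagged CEH-82 was deposited as lists of regions on build ce11. Per the deposited file records, the authors called regions and background on single and on combined replicates, using a control that was not analysed here, and thresholded the pooled list by irreproducible discovery rate. For the aligner, caller, threshold and duplicate handling, nothing is stated by the sources used here. The deposited signal value is a score of unstated scale, used only to rank regions within a list. The deposited significance is the −log10 of a q-value. Without read counts in the lists, the depth of each sample is unknown and the text gives no depth-based interval. The ce10 lists were not used.

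Summits were placed by the WBcel235 annotation of Ensembl release 115 (ce11 is the same assembly), with 1 start per gene and 1-based coordinates. Sequence and gene products came from RefSeq on the same assembly (416 of 416 genes matched). Python 3.11.15, pandas 2.3.3, numpy 2.4.6 and scipy 1.17.1 were used. Both samples form 1 group, so no test between conditions exists. The genes named are the 20 strongest reproducible regions, the 5 on each side of the threshold, those unmatched or ranked beyond 5000 in 1 replicate, those of the 16 gene lists with a reproducible region, and any grouped by offset or strand. Genes outside this rule, such as sdc-2, let-2 and adm-2, were chosen after their values were seen. Members and lists were chosen with earlier results of these data known, and the patterns of 3 lists (receptors, muscle, chromatin) were tightened after symbols that only share their first letters were seen to match. The scripts were tested on simulated regions. The alternatives were other windows, starts, replicate lists, the stronger 50% of each set, summit distances and sequence lengths.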

Additional observations from a re-analysis of the deposited data

How the results depend on the processing

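Of 148 alternative values, 109 stayed within the replicate spread, the binomial limits or 1.5 times the count, and 39 did not. The binomial limits treat regions as independent, which they are not. The replicate spread comes from the same replicate lists that are among the alternatives. The count is therefore a description and not a measure of robustness. The number of regions was 257 with a window of 500 bp upstream to 100 bp downstream, 683 with 2000 and 500 bp, and 1112 to 1133 in 1 replicate list alone, which holds more rows. In the same order the reproducible median offset was −212.5, −305 and −278 to −267 bp, and the remaining one −164, −517.5 and −346 to −333 bp, so which set lay closer turns with the window. With every transcript start the reproducible median was −246 bp. The stronger 50% of the reproducible regions had a median of −310 bp, 3.57% with starts on both strands and, being fewer, 26 in both lists. The stronger 50% of the remaining regions had −246 bp and 42.9% GC. With the 2000 bp window 24.6% of reproducible and 10.2% of remaining regions had starts on both strands. GC was 53.1% and 41.3% within 50 bp of the summit, 44.9% and 38.4% within 200 bp, and 48.8% to 51.0% and 36.5% to 37.9% in 1 replicate alone, for reproducible and remaining regions, so its order did not turn under these. The causes were not tested beyond what each setting itself removes. The share in the last 100 bp before the start, added after the data were seen, is given with its values above. No paired analysis was possible because there is 1 group. Depth is unknown, and 2 replicates limit every statement on reproducibility.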

Other observations

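Some remaining regions were high in 1 replicate, and these genes were picked after their values were seen. High in replicate 1 were 21 remaining regions and in replicate 2 there were 7. adm-2, which encodes an ADAM-family metalloprotease, was at rank 105 in replicate 1 with a value of 15.4, was unmatched in replicate 2, and had a pooled value of 11.8. lgc-41, a ligand-gated channel gene, was at rank 211 in replicate 1 with a value of 11.3 and had no match in replicate 2. kin-29, a kinase gene, was at rank 336 in replicate 1 and at rank 18575 in replicate 2. sdc-2 went the other way, with 3.52 in replicate 1 (rank 13124) and 15.9 in replicate 2 (rank 444), a pooled value of 19.4 and a summit 364 bp upstream of its start.

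The deposited significance did not follow the signal value across the threshold. In the pooled list 40 of the 56 reproducible regions had the same −log10 q of 2.93 (q of 0.00117). The other 16 had values of 2.47 to 2.55, and among them the value rose as the signal fell, from 2.47 at C05G5.2 with a signal of 22.8 to 2.55 at the region of glit-1 and dnj-14 with 21.2. Remaining regions went up to 2.63, at hst-2 with a signal of 19.1. Regions were therefore ordered here by signal value and not by significance.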
